A study of Mus musculus with 3 samples.

Results

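Head-to-head protein-coding gene pairs were described here. A pair consisted of a coding locus on the minus strand and, to its right, a coding locus on the plus strand. The 5′ ends of the partners lay at most 1000 bp apart and their bodies did not overlap. A locus counted as coding when at least 1 of its transcripts in the deposited annotation was recorded as matching a RefSeq mRNA. Its 5′ end was the outermost annotated start of those transcripts. The deposited annotation held 765 such pairs, made of 1530 loci, which was 7.61% of its 20117 coding loci. No locus belonged to more than 1 pair. The paper describes assembly both with and without known transcripts as a guide, and some coding loci had no measured level in any library. The 5′ ends and distances are therefore those of the annotation. Whether transcription starts at these positions in the ventricle was not tested. The levels came from total RNA of C57BL/6 mouse heart ventricles of 2 embryonic stages, named E10.5 and E13.5 after the day of gestation, and of mice aged 8 weeks, named adult. Each stage had 1 stranded library. The labels name neither the sex nor the number of animals in a library, and all 3 groups were untreated animals of the same strain. A single library per stage leaves every difference without a replicate check, so p-values were not computed. Where 3 levels of a gene are listed, they stand in the order E10.5, E13.5, adult.

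Divergent genes whose starts lie this close together share the DNA between them as a bidirectional promoter. Promoters of this kind are known to be rich in GC and CpG and poor in TATA boxes, and many of them serve housekeeping functions such as DNA repair, mitochondrial metabolism and the cell cycle. Sharing the stretch of DNA does not oblige both genes to be transcribed to the same extent, since RNA polymerase is loaded separately for each direction.

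The 5′ ends of the partners were a median of 172 bp apart, with quartiles at 89 and 329 bp. There were 212 pairs at 1 to 100 bp, 210 at 101 to 200 bp and 124 at 201 to 300 bp, and the number fell to 11 at 901 to 1000 bp. Beyond the limit the counts stayed at a similar low level, with 17 divergent pairs in the first 100 bp past it and 14 in the next 100 bp. The most widely spaced members were Urod and Hectd3 at 973 bp, Ddx25 and Pus3 at 996 bp, and Zfyve26 with Rad51l1 and Sgsm2 with Tsr1, both at 1000 bp. The nearest pairs outside were Serpina7 with 4930513O06Rik at 1007 bp and Bet1l with Ric8 at 1014 bp. Urod was at 44.5, 59.6 and 48.3 FPKM (fragments per kilobase of transcript, scaled to the number of mapped fragments) and Hectd3 at 3.39, 4.81 and 5.90 FPKM. Bet1l was at 7.85, 14.2 and 6.14 FPKM and Ric8 at 9.03, 13.6 and 6.23 FPKM. Pairs were found on 20 chromosomes, with 72 on chromosome 11, 61 on chromosome 7 and 18 on chromosome X.

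**Figure D1:**
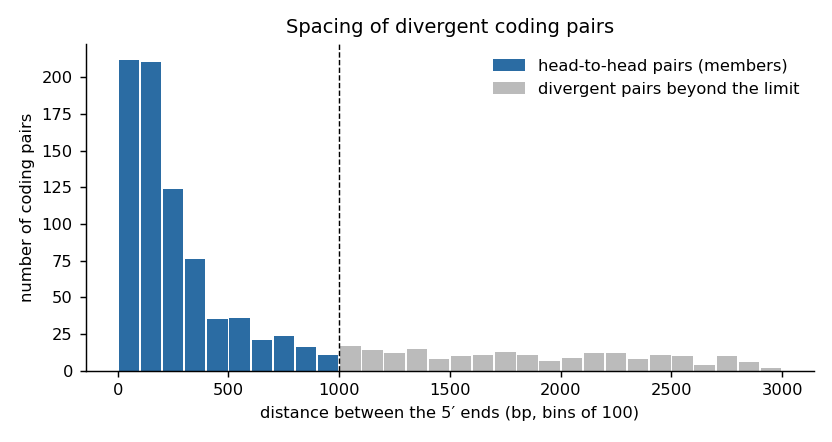
Number of divergent coding pairs (y axis) by the distance between their 5′ ends in bp (x axis, bins of 100 bp). Blue bars are the 765 head-to-head pairs, grey bars the divergent pairs beyond the limit of 1000 bp (dashed line); the counts are highest, at 212 and 210, in the first bins and drop to 11 in the last bin before the limit.

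The rule left out 134 divergent pairs whose starts overlapped by up to 1000 bp. Of 24 well-known divergent pairs looked up by name, 16 were members. Hadha and Hadhb, which encode the mitochondrial trifunctional protein, were not members because their transcripts overlapped at the start, and the same held for Surf1 with Surf2 and for Ppat with Paics. Trp53 and Wrap53 lay 1035 bp apart and Col4a5 and Col4a6 1343 bp apart, just outside the limit. In 34 pairs a partner was a locus that joined more than 1 gene, so its level could not be ascribed to a single gene.

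The DNA between the starts is shown for pairs to which the results below return. Tfb2m with Cnst and Psmb9 with Tap1 were higher in the adult together, and Peg3 with Usp29 were lower together. Hspd1 with Hspe1 were level with each other, Cox4nb with Cox4i1 were far apart in level, Sdhd with Timm8b had the highest lowest level, and for Mcm7 with Ap4m1 mainly Mcm7 changed. The sequences are from the RefSeq genome GRCm38.p6, given 5′ to 3′ on the plus strand, so that each runs from the start of the minus-strand gene to the start of the plus-strand gene. Capitals mark matches to any of 9 short motifs, searched as plain strings on both strands with overlapping matches kept. The TATA box was searched as TATAAA, the box known by its letters as CCAAT, and the box bound by SP factors as GGGCGG. Letters bound by ETS factors were searched as CCGGAAG, those bound by NRF1 as GCGCATGC, those bound by YY1 as AAGATGGC and those bound by E2F factors as TTTGGCGC. The cyclic AMP response element was searched as TGACGTCA and the E-box as CACGTG.
Tfb2m and Cnst (chr1:179546268-179546528): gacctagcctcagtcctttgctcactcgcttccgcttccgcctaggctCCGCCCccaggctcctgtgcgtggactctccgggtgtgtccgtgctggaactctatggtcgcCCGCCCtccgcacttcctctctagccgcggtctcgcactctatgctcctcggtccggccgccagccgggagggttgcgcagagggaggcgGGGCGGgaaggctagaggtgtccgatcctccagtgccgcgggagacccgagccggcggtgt
Psmb9 and Tap1 (chr17:34187331-34187555): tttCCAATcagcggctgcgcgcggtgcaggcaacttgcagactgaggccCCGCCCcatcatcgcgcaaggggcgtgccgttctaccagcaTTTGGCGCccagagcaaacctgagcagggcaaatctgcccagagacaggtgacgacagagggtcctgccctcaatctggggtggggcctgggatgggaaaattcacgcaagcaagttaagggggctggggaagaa
Peg3 and Usp29 (chr7:6730464-6730740): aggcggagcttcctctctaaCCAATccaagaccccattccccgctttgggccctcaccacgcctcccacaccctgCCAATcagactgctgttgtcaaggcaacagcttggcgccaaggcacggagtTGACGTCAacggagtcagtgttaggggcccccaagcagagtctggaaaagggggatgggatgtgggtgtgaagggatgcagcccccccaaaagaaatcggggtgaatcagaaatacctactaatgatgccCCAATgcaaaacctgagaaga
Hspd1 and Hspe1 (chr1:55087933-55088147): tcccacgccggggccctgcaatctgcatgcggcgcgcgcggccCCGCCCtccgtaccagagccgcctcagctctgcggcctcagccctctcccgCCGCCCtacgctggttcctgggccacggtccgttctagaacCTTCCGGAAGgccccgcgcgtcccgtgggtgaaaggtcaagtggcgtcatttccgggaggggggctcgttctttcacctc
Cox4nb and Cox4i1 (chr8:120668113-120668289): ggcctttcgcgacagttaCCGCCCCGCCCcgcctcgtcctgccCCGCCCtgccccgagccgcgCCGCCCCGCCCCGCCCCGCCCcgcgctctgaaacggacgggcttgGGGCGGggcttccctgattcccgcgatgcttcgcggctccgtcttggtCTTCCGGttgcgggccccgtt
Sdhd and Timm8b (chr9:50603850-50603900): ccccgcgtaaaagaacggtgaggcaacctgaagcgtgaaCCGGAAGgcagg
Mcm7 and Ap4m1 (chr5:138171863-138172012): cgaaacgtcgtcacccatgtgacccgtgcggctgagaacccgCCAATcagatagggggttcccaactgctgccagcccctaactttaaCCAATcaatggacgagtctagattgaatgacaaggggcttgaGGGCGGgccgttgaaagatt

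The GC share of these stretches ranged from 54.7% for Mcm7 and Ap4m1 to 76.3% for Cox4nb and Cox4i1. The region between Cox4nb and Cox4i1 held 8 matches to GGGCGG, some of them overlapping. In the 51 bp between Sdhd and Timm8b the only match was to CCGGAAG, and between Hspd1 and Hspe1 this motif was found on both strands at the same place. The region between Peg3 and Usp29 held 3 matches to CCAAT, 1 to TGACGTCA and only 8 CpG dinucleotides in 277 bp. Over the 747 pairs with 20 or more bases between the starts, 103 (13.8%) held none of the motifs.

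GC share, CpG ratio and the motifs were then counted for all members. In the 300 bases from 250 before to 50 after each start, the median GC share was 62.7% for the 1530 members, 57% for all 20117 coding loci and 60.7% for 11188 expressed coding loci that were in no pair. An observed over expected CpG ratio of 0.6 or more was found in 90.1% of members, 50.6% of all coding loci and 68.4% of expressed loci in no pair. TATAAA was found in 4.38% of member windows, 12.9% of all windows and 7.94% of the expressed windows in no pair. CCGGAAG showed the opposite pattern, with 30.7%, 11.97% and 15.5%, respectively. AAGATGGC was in 8.10%, 3.34% and 4.05%, and TGACGTCA in 4.77%, 2.52% and 3.03%. GGGCGG was in 70.2% of members, 48.7% of all coding loci and 63.7% of expressed loci in no pair, and CCAAT in 42.9%, 38.0% and 36.7%. GCGCATGC was in 6.14%, 3.69% and 4.83%, and TTTGGCGC in 1.503%, 0.69% and 0.86%. CACGTG was in 9.80%, 8.00% and 9.78%, so that members and expressed loci in no pair were nearly equal. These member shares include loci that were not expressed. Among the 1381 expressed members the CpG ratio reached 0.6 in 92.8%, TATAAA was in 3.91%, CCGGAAG in 32.2% and CACGTG in 9.99%. The windows of partners overlap when their starts are close, so that 1 match can be counted for both members. A match is a description of the sequence and not evidence that a factor binds there.

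The libraries were checked against marker genes of the tissue. All 8 ventricular cardiomyocyte markers were found, with a median level of 857, 1696 and 2682 FPKM. From E10.5 to adult all 8 proliferation markers were lower, with medians of 36.2, 37.3 and 0.39 FPKM, and all 4 atrial markers were lower, with summed levels of 6382, 6766 and 40.9 FPKM. Summed macrophage markers were at 39.4, 108 and 407 FPKM, with 6 of 6 higher in the adult than at E10.5. All 3 primitive erythroid markers were lower in the adult, with sums of 6727, 16305 and 3.05 FPKM. The sums were 53.7, 64.4 and 3.59 FPKM for 5 fast skeletal muscle markers, 80.0, 98.0 and 7.06 FPKM for 4 epicardial markers, and 8.08, 18.2 and 0.18 FPKM for 5 liver markers. For 6 endothelial markers the sums were 290, 214 and 283 FPKM and the medians 47.3, 34.6 and 52.5 FPKM. For 6 fibroblast markers the sums were 244, 465 and 501 FPKM and the medians 24.3, 54.6 and 24.6 FPKM. In the adult, 2 of 6 endothelial and 4 of 6 fibroblast markers were higher than at E10.5. The same held for 1 of 4 epicardial, 1 of 5 liver and 0 of 5 fast skeletal muscle markers. Only among the liver markers was a gene listed at 0, with 1 at E10.5 and 1 in the adult. In bulk tissue fewer cells of a type and less RNA per cell cannot be told apart.

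Most head-to-head genes were expressed in the ventricle. Of the 1530 members, 1381 (90.3%) reached 1 FPKM in at least 1 library, against 60.2% of the 18587 coding loci in no pair. In the libraries taken singly, 87.8%, 88.4% and 83.3% of members met this limit, against 56.2%, 57.7% and 55.5% of all coding loci. Both partners reached the limit in at least 1 library in 643 pairs (84.1%), 1 partner did in 95 pairs, and neither did in 27 pairs. Within the single libraries both partners met it in 612 pairs (80.0%), 619 pairs (80.9%) and 551 pairs (72.0%) in stage order, and in 526 pairs this held in all 3. The median expressed member was at 13.03, 14.1 and 8.50 FPKM, and the median expressed coding locus at 11.7, 11.8 and 8.38 FPKM.

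On the log2(FPKM + 1) scale the median gap between partners of the 643 pairs was 1.30, 1.48 and 1.40 in the 3 libraries, in the order of the stages. The gap was under 1 in 265, 238 and 235 pairs, and at 3 or more in 98, 113 and 109 pairs. Across the 643 pairs the level of the minus-strand partner was almost unrelated to that of the plus-strand partner, with Pearson correlations of 0.05, 0.06 and 0.05 and a Spearman correlation of 0.04 in each. These correlations are across pairs within a library, and all points of a panel share that library.

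**Figure D2:**
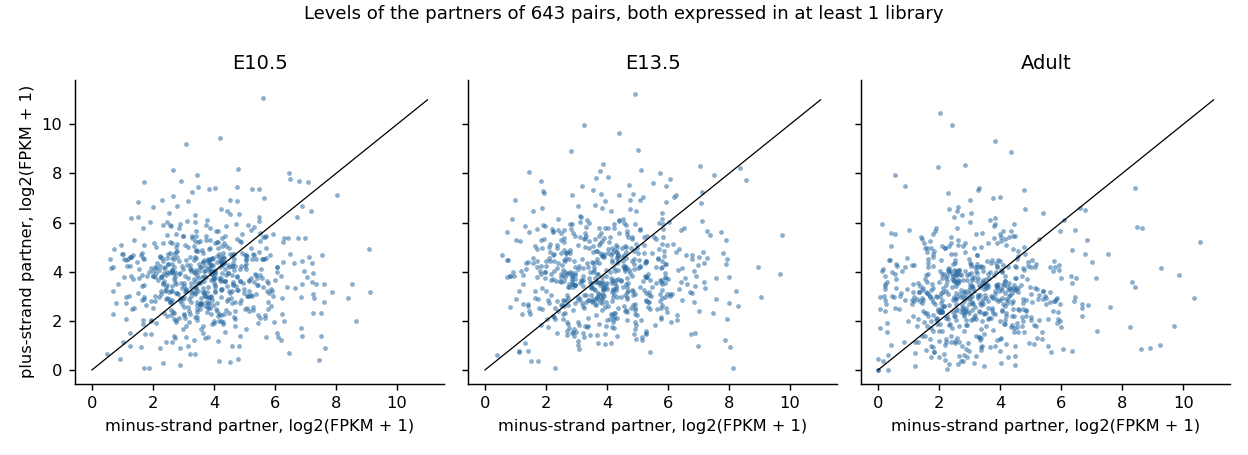
Level of the plus-strand partner (y axis) against that of the minus-strand partner (x axis), both as log2(FPKM + 1), in the E10.5, E13.5 and adult libraries. Each point is 1 of the 643 pairs with both partners expressed and the line marks equal levels; the points form a round cloud, with Pearson correlations of 0.05, 0.06 and 0.05.

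Ranked by the lowest FPKM of either partner in any of the 3 libraries, the highest 4 pairs were Sdhd with Timm8b, Mrpl18 with Tcp1, Hspd1 with Hspe1 and Idh3g with Ssr4. Sdhd, a membrane anchor of succinate dehydrogenase, was at 262, 371 and 341 FPKM, and Timm8b, which takes part in protein import into mitochondria, at 140, 212 and 171 FPKM. The partners kept a gap of 0.81 to 0.99 on the log2(FPKM + 1) scale through the 3 stages. Hspd1 and Hspe1, which encode the chaperonin of the mitochondrial matrix and its lid, had nearly equal levels. Hspd1 was at 118, 138 and 67.6 FPKM and Hspe1 at 102, 149 and 68.4 FPKM. Processed copies of both genes exist in the genome, and how multiply mapped fragments were assigned is not given in the sources used here. Mrpl18, a mitochondrial ribosomal protein gene, was at 87.0, 130 and 98.2 FPKM, and its partner Tcp1, a subunit of the cytosolic chaperonin, was higher in the embryo (259 and 318 FPKM) but level with it in the adult (95.9 FPKM). Idh3g, a subunit of the isocitrate dehydrogenase of the citric acid cycle, was at 106, 134 and 358 FPKM, whereas Ssr4, which belongs to the translocon of the endoplasmic reticulum, was at 74.99, 110 and 54.98 FPKM.

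Among the 4 pairs with the largest gap in level, beside Ndufa5 with Asb15 below, an abundant gene lay next to a low one. Cox4i1, a subunit of cytochrome c oxidase, was at 586, 1014 and 1394 FPKM, while Cox4nb (Emc8 in current RefSeq), a subunit of the endoplasmic reticulum membrane complex, was at 7.48, 8.39 and 3.11 FPKM. The gap between them was 6.11, 6.76 and 8.41 on the log2(FPKM + 1) scale. Atp5c1, the gamma subunit of ATP synthase, was at 549, 805 and 1303 FPKM beside Kin, a DNA-binding protein gene, at 8.01, 13.8 and 6.52 FPKM. Mdh1, the cytosolic malate dehydrogenase, was at 333, 534 and 822 FPKM beside Wdpcp, which takes part in cilium formation, at 6.53, 6.94 and 2.46 FPKM. In each of these 3 pairs the FPKM of the abundant partner was highest in the adult library and that of the low partner was lowest there.

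The higher partner was usually the same at every stage. It was the same gene in all 3 libraries in 470 of the 643 pairs (73.1%), and differed between E10.5 and adult in 140 pairs (21.8%), but with a gap of 1 or more in both libraries in only 14. The clearest of these was Cdc27, a subunit of the anaphase-promoting complex, with Myl4, a myosin light chain gene, 43 bp apart. Myl4 was at 2164, 2440 and 1.42 FPKM and Cdc27 at 47.4, 29.1 and 14.8 FPKM, so Myl4 was the higher partner in the embryonic libraries and the lower in the adult. Myl4 is also 1 of the 4 atrial markers above. The parts of atrial tissue and of expression in the ventricle itself in this result were not tested. Wdr93 was at 20.3, 13.1 and 0.18 FPKM and its partner Pex11a, a peroxisomal membrane protein gene, at 1.79, 0.77 and 5.17 FPKM. Cdca8, which encodes borealin of the chromosomal passenger complex, was at 32.6, 40.7 and 0.17 FPKM, and its partner 9930104L06Rik stayed between 4.32 and 5.87 FPKM. Tacc3, a mitotic spindle gene, was at 36.8, 53.3 and 0.97 FPKM, and Tmem129 at 9.30, 14.4 and 9.53 FPKM.

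The change between stages was compared within each pair next. The change of a locus was the difference of log2(FPKM + 1), minus the median difference over the 12569 coding loci that reached 1 FPKM in at least 1 library. That median was -0.40 from E10.5 to adult, -0.50 from E13.5 to adult and 0.17 from E10.5 to E13.5, and all changes below are relative to it. A locus was called higher or lower when its change was past 1, which is 2-fold at high levels and understates the change of low genes. The E10.5 to adult and E13.5 to adult comparisons share the adult library, and each embryonic library enters a pair of comparisons.

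From E10.5 to adult, 156 of the 1286 partners (12.1%) were called higher and 200 (15.6%) lower. Of all 12569 coding loci tested, 20.9% were called higher and 16.8% lower, so the share called higher was smaller among head-to-head genes. In 343 of the 643 pairs (53.3%) neither partner was called, in 105 only 1 partner was higher, and in 139 only 1 was lower. Both partners were higher in 18 pairs and both lower in 23, and in 15 pairs the partners were called in opposite directions. Without the centring, 9 pairs were both higher and 66 both lower. When a member was called higher its partner was also called higher in 23.1% of cases and lower in 9.62%, and when a member was called lower its partner was lower in 23.0% and higher in 7.50%. The changes of the partners had the same sign in 366 pairs (56.9%). Across the pairs the Pearson correlation of the changes was 0.23 and the Spearman correlation 0.17, with all points resting on the same 2 libraries.

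**Figure D3:**
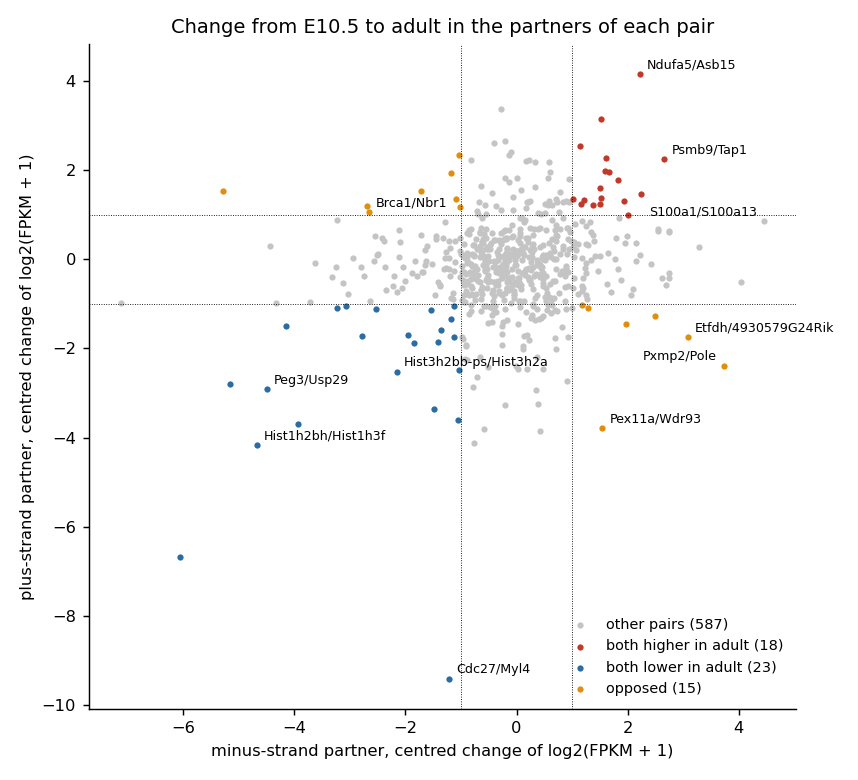
Centred change of log2(FPKM + 1) from E10.5 to adult for the plus-strand partner (y axis) against the minus-strand partner (x axis), 1 point per pair (n = 643), with dotted lines at the threshold of 1. Coloured points are the 18 pairs with both partners higher, the 23 with both lower and the 15 opposed; most points lie near the centre or along the axes, where only 1 partner changed.

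The pairs below were among the 6 largest joint rises to the adult of the 464 pairs that could be ranked. Tfb2m, a transcription factor of mitochondrial DNA, was at 9.48, 10.2 and 27.1 FPKM. Its partner Cnst, which encodes consortin, a binding partner of connexins, was at 9.27, 9.04 and 25.6 FPKM. The levels of these partners differed by no more than 0.15 on the log2(FPKM + 1) scale at any stage, and the changes to the adult were 1.82 and 1.77. Fahd1, a mitochondrial acylpyruvase gene, was at 15.1, 23.8 and 37.9 FPKM, and Hagh, the glyoxalase that hydrolyses lactoylglutathione, at 12.6, 22.5 and 38.8 FPKM. Here the level was already higher at E13.5 in both genes. Ndufa5, a subunit of respiratory complex I, was at 173, 278 and 612 FPKM, and Asb15, a muscle gene with ankyrin repeats and a SOCS box, at 0.31, 0.05 and 16.7 FPKM. These partners were both higher in the adult, by 2.21 and 4.15, although their levels were far apart. Retsat, a retinol saturase gene, was at 5.26, 6.23 and 22.0 FPKM with Elmod3 at 2.42, 3.19 and 6.87 FPKM. Trak2, an adaptor for the transport of mitochondria, was at 23.9, 23.0 and 53.1 FPKM with Stradb, a pseudokinase of the LKB1 complex, at 9.997, 7.26 and 20.8 FPKM.

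The 6 largest joint falls included a pair of imprinted genes and pairs of histone genes. Hist1h2bh was at 44.5, 74.95 and 0.35 FPKM and Hist1h3f at 46.4, 139 and 1.00 FPKM, 700 bp apart. The levels of these genes were highest at E13.5. Hist3h2a was at 58.6, 130 and 6.85 FPKM, and Hist3h2bb-ps at 12.3, 72.1 and 1.26 FPKM. Peg3, an imprinted zinc finger gene transcribed from the paternal allele, was at 147, 61.3 and 3.98 FPKM. Its imprinted partner Usp29 followed the same course at a lower level, with 10.9, 4.07 and 0.20 FPKM, and the changes from E10.5 to adult were -4.49 and -2.91. Sgce and Peg10, a further imprinted pair that was singled out after its values were seen, were also both lower. Sgce was at 18.5, 29.6 and 6.12 FPKM and Peg10 at 23.3, 5.39 and 0.51 FPKM. Prr11, a cell cycle gene, was at 9.57, 2.90 and 0.17 FPKM, and Fam33a (Ska2), a kinetochore gene, at 42.4, 56.8 and 8.95 FPKM. Cbx5, which encodes the heterochromatin protein HP1 alpha, was at 136, 109 and 25.7 FPKM and Hnrnpa1, an RNA-binding protein gene, at 23.3, 21.8 and 4.66 FPKM. BC046404 (Lrrc75a) was at 14.7, 21.6 and 2.31 FPKM and Mmgt2 at 18.5, 23.6 and 3.03 FPKM. Hnrnpa1 and the histone genes have near-identical relatives elsewhere in the genome, so their levels are uncertain. The summed proliferation, primitive erythroid, atrial, fast skeletal muscle, epicardial and liver markers given above were also lower in the adult, and their part in these falls was not tested.

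In the 6 most opposed pairs a partner that was lower in the adult lay beside a partner that was higher. Pxmp2, a peroxisomal membrane protein gene, was at 7.12, 10.501 and 81.0 FPKM, whereas Pole, the catalytic subunit of DNA polymerase epsilon, was at 10.7, 9.35 and 0.70 FPKM. The partners start 151 bp apart and were nearly level in the embryo, with gaps of 0.53 and 0.15 on the log2(FPKM + 1) scale, but were 5.59 apart in the adult. Etfdh, which passes electrons from fatty acid oxidation to ubiquinone, was at 60.4, 82.0 and 394 FPKM, and 4930579G24Rik at 7.01, 8.77 and 0.82 FPKM. Ncapd2, a condensin subunit, was at 28.3, 50.9 and 5.75 FPKM, and Mrpl51, a mitochondrial ribosomal protein gene, at 35.5, 62.5 and 78.7 FPKM. Both were higher at E13.5 than at E10.5, and they parted only in the adult. Ndufs1, a core subunit of complex I, was at 135, 181 and 403 FPKM. Its partner Eef1b2, a translation elongation factor gene, starts 9 bp away and was at 198, 244 and 54.5 FPKM. Pex11a and Wdr93, given above, changed by 1.55 and -3.77. Hist2h2ac was at 115, 313 and 1.28 FPKM, while Hist2h2be was at 2.25, 5.05 and 6.10 FPKM, the only histone member called higher in the adult.

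**Figure D4:**
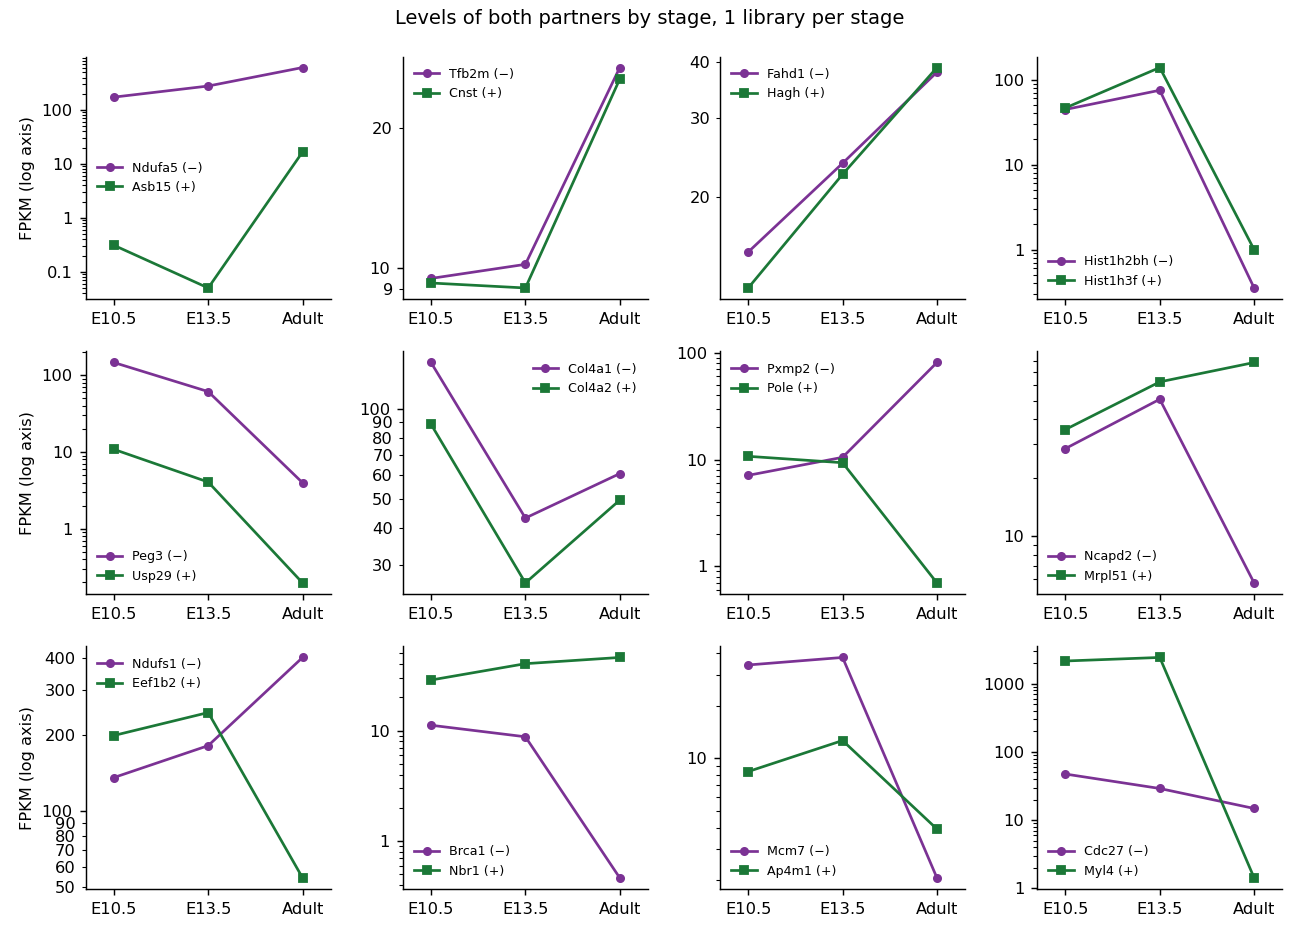
FPKM on log axes (y, a separate range in each panel) of both partners of 12 pairs in the E10.5, E13.5 and adult libraries (x), with circles for the minus-strand and squares for the plus-strand partner and 1 library per stage. Tfb2m with Cnst and Peg3 with Usp29 move together, Col4a1 with Col4a2 is lowest at E13.5, and Pxmp2 with Pole, Ncapd2 with Mrpl51 and Ndufs1 with Eef1b2 part between E13.5 and adult.

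From E13.5 to adult the counts were similar. Of the partners 10.9% were called higher and 18.4% lower, against 21.4% and 17.9% of all coding loci tested. Both partners were higher in 17 pairs, both were lower in 30, and 12 pairs were opposed. The signs were the same in 376 pairs (58.5%). Without the centring, 7 pairs were both higher and 105 both lower.

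Between the embryonic libraries little changed. In the step to E13.5, 1.71% of the partners were called higher and 4.74% lower, against 3.95% and 7.13% of all coding loci tested. Neither partner was called in 565 of the 643 pairs (87.9%). Both were lower in 3 pairs, which included the basement membrane collagens Col4a1 and Col4a2, whose starts lie 3 bp apart. Col4a1 was at 143, 43.2 and 60.7 FPKM and Col4a2 at 88.8, 26.2 and 49.6 FPKM, and their changes from E10.5 to E13.5 were -1.87 and -1.89. The partners stayed within 0.70 of each other on the log2(FPKM + 1) scale in every library. The other pairs with both lower at E13.5 were Peg3 with Usp29, at -1.41 and -1.39, and Prepl, a peptidase-like gene, with 1700106N22Rik (Camkmt, the calmodulin lysine methyltransferase), at -1.23 and -1.18. Prepl was at 14.8, 6.57 and 27.5 FPKM, and its level in the adult was above that at E10.5.

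Both partners were higher in 1 pair, named here after its values were seen. Hist1h2ae was at 5.37, 13.6 and 0.09 FPKM and its partner, a locus joining Hist1h2bc and Hist1h2bg, at 135, 331 and 61.1 FPKM. No ranked pair had both partners past the threshold upwards with the centring. Hist3h2bb-ps and Hist3h2a changed by 2.29 and 0.97, and by 2.46 and 1.14, both past the threshold, without the centring. The changes of Hist2h2ac and Hist2h2be were 1.26 and 0.73, and those of S100a1 and S100a13 1.10 and 0.75. S100a1, a calcium-binding protein gene of heart muscle, was at 88.1, 214 and 1485 FPKM. Its partner S100a13 was at 25.3, 48.6 and 35.5 FPKM, so that the gap between them widened from 1.76 at E10.5 to 5.35 in the adult on the log2(FPKM + 1) scale. The only opposed pair at this step was 1810020D17Rik (Aamdc), at 6.91 and 17.3 FPKM at E10.5 and E13.5, with the chromatin remodelling gene Rsf1, at 16.2 and 8.65 FPKM. The change of Rsf1 was -1.001, at the threshold, and -0.83 without the centring. Ppwd1 and Cenpk changed by -0.72 and 1.09, and Spata1 and Gng5 by -0.87 and 0.71.

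Head-to-head pairs were set beside coding pairs in other arrangements, with both partners expressed and the same threshold. These were 340 tail-to-tail pairs and 262 same-strand neighbours within 1000 bp, and 492 divergent pairs with starts over 1000 and up to 10000 bp apart. From E10.5 to adult 2.33% of head-to-head pairs were opposed, against 5.59% of tail-to-tail, 6.49% of same-strand and 4.47% of the more distant divergent pairs. Neither partner was called in 53.3% of head-to-head pairs and in 39.4%, 41.6% and 45.9% of the others. The median difference between the changes of the partners was 0.80 for head-to-head pairs and 1.22, 0.96 and 1.05 for the others. Of head-to-head pairs 2.80% were both higher and 3.58% both lower, against 3.53% and 2.06% of tail-to-tail pairs, 4.58% and 3.82% of same-strand pairs, and 3.05% and 5.89% of distant divergent pairs. The Pearson correlation was 0.23, against 0.05, 0.21 and 0.40. By rank the order differed, with a Spearman correlation of 0.17, against 0.04, 0.06 and 0.13. This lead was not seen over every arrangement in the other comparisons. The Spearman correlation was 0.185, against 0.023, 0.043 and 0.183, from E13.5 to adult. It was 0.151, against 0.015, 0.166 and 0.094, from E10.5 to E13.5. From E10.5 to adult the changes had the same sign in 56.9% of head-to-head pairs, against 52.4%, 53.1% and 51.6%. Of the single members of head-to-head pairs 12.1% were called higher and 15.6% lower, against 19.1% and 16.8% in tail-to-tail pairs, 17.2% and 19.5% in same-strand pairs and 16.2% and 17.6% in distant divergent pairs, and the part of this in the share of opposed pairs was not tested.

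**Figure D5:**
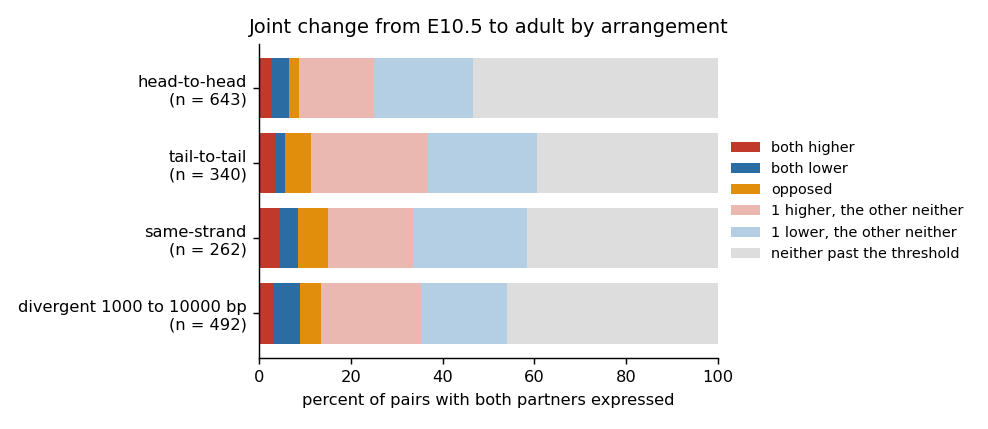
Percent of pairs with both partners expressed (x axis) in each class of joint change from E10.5 to adult, for 643 head-to-head, 340 tail-to-tail, 262 same-strand and 492 more distant divergent pairs (1 bar each). The grey part, with neither partner past the threshold, is longest for head-to-head pairs at 53.3%, and their orange part, opposed pairs, is shortest at 2.33%.

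The share of pairs with the same sign of change was given by the spacing of the starts. From E10.5 to adult the partners had the same sign in 58.1% of 179 pairs at 1 to 100 bp, 61.7% of 183 at 101 to 200 bp, 52.9% of 104 at 201 to 300 bp, 54.3% of 94 at 301 to 500 bp and 51.8% of 83 at 501 to 1000 bp. This order was not seen in the other comparisons. In the same bins of spacing the shares were 59.2%, 60.7%, 58.7%, 52.1% and 59.0% for E13.5 to adult, and 59.2%, 55.2%, 53.8%, 54.3% and 67.5% for E10.5 to E13.5. Median gaps in level in these bins were 1.06, 1.23, 1.53, 1.55 and 1.43 at E10.5. They were 1.23, 1.47, 2.01, 1.73 and 1.38 at E13.5, and 1.24, 1.40, 1.57, 1.56 and 1.54 in the adult.

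The members were then counted by function. Histones were the list with the largest share in pairs, with 24 of 63 loci, all paired with another histone. From E10.5 to adult, 15 of the 20 expressed ones were called lower and 1 higher, and over the whole list it was 47 and 1 of 55. Over all coding loci tested 16.8% were lower and 20.9% higher. Histone pairs made up 5 of the 23 pairs with both partners lower and 1 of the 15 opposed pairs. Without them, 18 pairs were both lower from E10.5 to adult, and 23 instead of 30 from E13.5 to adult. Hist1h2ak was at 109, 327 and 0.26 FPKM. Between the embryonic libraries, 9 of the paired histones were called higher and 2 lower, against 3.95% and 7.13% of all coding loci tested.

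Of 14 expressed head-to-head genes of mitosis 13 were called lower from E10.5 to adult, and 3 of their 14 partners were lower and 2 higher. Over the whole list 57 of 60 were lower, and over all coding loci tested 16.8% were lower and 20.9% higher. Without the centring 5 of the partners were lower and 2 higher. Aurka, a spindle kinase gene, was at 38.4, 58.1 and 0.49 FPKM, and its partner Cstf1, an mRNA cleavage factor, at 24.9, 24.1 and 9.04 FPKM. Cdca3 was at 26.7, 70.7 and 0.50 FPKM beside Usp5, a deubiquitinase gene, at 43.3, 54.9 and 21.3 FPKM. In contrast, Hmmr, which binds hyaluronan and the spindle, and its partner Nudcd2 were both called lower, with Hmmr at 26.1, 32.5 and 0.16 FPKM and Nudcd2 at 38.8, 51.6 and 9.67 FPKM. Of 14 DNA replication and repair genes 9 were lower, and of 13 expressed partners 2 were lower and 2 higher. Over the whole list 53 of 64 were lower. Without the centring, or with equal coding sums, the partners were 4 lower and 1 higher. Mcm7, a subunit of the replicative helicase, was at 34.3, 37.9 and 2.06 FPKM, and Ap4m1, an adaptor protein subunit, at 8.40, 12.7 and 3.93 FPKM. Rpa1, a subunit of the single-stranded DNA-binding protein RPA, was at 53.05, 61.2 and 15.8 FPKM beside Smyd4, a methyltransferase-like gene, at 5.75, 7.65 and 4.23 FPKM.

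Of 23 members of the respiratory chain list 16 were called higher from E10.5 to adult and none lower. Of their 21 expressed partners 3 were higher and 2 lower. Without the centring the counts were 13 higher for the members, and 2 higher and 6 lower for the partners. Over the whole list, 64 of 95 were higher and 3 lower, and over all coding loci tested 20.9% were higher and 16.8% lower. Ndufb9 was at 284, 477 and 1001 FPKM beside Tatdn1 at 5.35, 6.08 and 4.40 FPKM, and Ndufb5 at 173, 280 and 463 FPKM beside Mrpl47 at 26.0, 34.0 and 19.7 FPKM. Ndufa1 was at 118, 242 and 485 FPKM beside Rnf113a1 at 1.61, 3.20 and 0.85 FPKM. Mitochondrial ribosomal protein genes did not move with them. Of 22 members 1 was higher and 1 lower, and their median change was 0.17 with the centring and -0.23 without it. Over that whole list, 5 of 75 were higher and 1 lower. Of the 21 expressed partners of these members 2 were higher and 6 lower, or 1 higher and 9 lower without the centring.

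The remaining lists moved less or were small. Of 11 cytosolic ribosomal protein genes in pairs 5 were called lower and 1 higher (6 and 1 without the centring), and many processed copies of these genes exist, so their levels are uncertain. Rpl4 was at 691, 804 and 246 FPKM, and its partner Zwilch, a kinetochore gene, at 17.3, 20.2 and 0.47 FPKM. Of 13 expressed chaperone members 2 were higher and 4 lower, of 8 proteasome members 1 was higher, of 10 aminoacyl-tRNA synthetases 1 was higher, and of 17 zinc finger genes 1 was higher. None of the 4 mitochondrial import genes was called. Over all coding loci tested 20.9% were higher and 16.8% lower. Without the centring the synthetases had 0 higher and 2 lower, the zinc finger genes 0 higher and 3 lower, and the import genes 1 lower. The chaperones then had 1 higher and 5 lower, and the proteasome genes 1 higher and 1 lower. Only 18 of 369 zinc finger loci (4.88%) were in pairs. Of 20 fatty acid oxidation loci only Etfdh was a member, and of 4 collagen members the 2 that were expressed were not called, but 1 of them was lower without the centring.

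The well-known pairs differed in pattern. Psmb9, an immunoproteasome subunit, was at 0.40, 0.30 and 5.71 FPKM and Tap1, the peptide transporter of antigen presentation, at 0.56, 0.52 and 4.62 FPKM, so both were higher in the adult. Macrophage markers were also higher in the adult, as given above, and their part in this was not tested. Brca1, a DNA repair gene, was at 11.2, 8.79 and 0.46 FPKM, while Nbr1, an autophagy receptor gene, was at 28.7, 40.3 and 45.9 FPKM. The change of Nbr1 was 1.06, close to the threshold, and 0.66 without the centring. Mcm4, a subunit of the replicative helicase, was at 53.6, 48.8 and 4.96 FPKM, and Prkdc, the catalytic subunit of DNA-dependent protein kinase, at 10.49, 4.66 and 6.75 FPKM. Atm, a DNA damage kinase gene, was at 11.8, 5.78 and 6.02 FPKM and Npat, an activator of histone genes, at 13.3, 10.3 and 4.19 FPKM.

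Mrps12 was at 30.8, 66.4 and 22.5 FPKM beside Sars2, the mitochondrial seryl-tRNA synthetase, at 7.71, 7.58 and 2.78 FPKM. Serpini1, which encodes neuroserpin, was at 0.96, 1.27 and 4.26 FPKM, and Pdcd10, known from cerebral cavernous malformation, at 7.96, 7.23 and 4.86 FPKM. Serpini1 was called higher in the adult and Pdcd10 was not. Hars2 was at 7.88, 12.1 and 9.09 FPKM, and its partner was a locus joining Hars and Dnd1, so the partner's level belongs to no single gene. Col4a3 and Col4a4, collagens of specialised basement membranes, stayed below 1 FPKM in every library.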

How the data were processed

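Per the labels, total RNA of heart ventricles was made into paired-end TruSeq stranded libraries, 1 per stage, and the submitters' processing notes name TopHat, Bowtie and Cufflinks and the mm10 build, without versions. The authors deposited an assembled transcript annotation and a table of 48626 loci in FPKM, a level scaled to transcript length and to mapped fragments, and these FPKM values were used as deposited. Handling of multiply mapped fragments is not given in the sources used here.

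Pairs were rebuilt from the annotation in Python 3.11.15 with pandas 2.3.3, and the step was tested on simulated loci. Gene symbols are those of the files, with current RefSeq symbols in parentheses for some genes where they differ, but not for the histones. No current RefSeq symbol was found for Hist3h2bb-ps, which counted as coding by the annotation alone. Coordinates refer to GRCm38.p6, the same assembly as mm10, and 99.7% of the introns of the deposited coding transcripts had GT or GC and AG ends in that genome. A pseudocount of 1 was added before taking log2, and coding loci that reached 1 FPKM in any library were analysed. Depth per library was estimated from the spacing of low values as about 13.6, 25.8 and 16.3 fragments per kilobase at 1 FPKM for E10.5, E13.5 and adult, so the E13.5 library is the most precise at low levels.

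Named pairs had both partners reaching 5 FPKM in some library, no partner listed at 0 and no joined locus. They were the 6 with the largest joint rise, joint fall and opposed change from E10.5 to adult, the 3 of each from E10.5 to E13.5, and the 4 highest by the lowest level of either partner in any library, by level gap and by changed order. Well-known divergent pairs and members of the gene lists were named beside them. The members, the gene lists and the named pairs were chosen with earlier results of these data known. Cox4nb and Col4a3bp were left out of the gene lists because their symbols only resemble those of the respiratory chain and the collagens. A joint change past the threshold was recalculated with other distances, thresholds, pseudocounts, scalings and filters. Some members are not reported here.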

Additional observations from a re-analysis of the deposited data

How the results depend on the processing

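With 1 library per stage no difference can be separated from variation between animals or libraries. No paired analysis was possible because no stage has more than 1 sample. Of 211 values recalculated under 13 settings, 178 stayed close to the main value and 33 did not. For counts, close meant within a fixed ratio of the main count. For level gaps it meant inside an interval of the median over pairs. Neither is an error limit, since there is 1 library per stage. There were more joint than opposed pairs under 13 of 13 settings for both comparisons with the adult and under 12 of 13 from E10.5 to E13.5. All settings used the same libraries and largely the same pairs, so they are not repeated tests. Unrelated partners with equal shares called would on average also give at least as many joint as opposed pairs. These counts are therefore a description only. Without the centring, the median change of -0.40 or -0.50 to the adult stays in every value. The cause of the shifts below was not tested, except where fewer pairs or a higher threshold lower a count by construction. When the changes were not centred, the counts of both higher and both lower were 9 and 66 from E10.5 to adult and 7 and 105 from E13.5 to adult, with 2 both higher and 0 opposed from E10.5 to E13.5. Without a filter on low values they were 9 and 66, 7 and 98, and 2 both higher and 0 opposed. This setting also took the centring median over all 20117 coding loci, many of them at 0. Its counts therefore do not show an effect of the filter alone. With a threshold of 2 the counts of both higher, both lower and opposed were 2, 6 and 1 from E10.5 to adult, 1, 6 and 2 from E13.5 to adult, and 0, 0 and 0 from E10.5 to E13.5. For starts within 300 bp, 11 pairs were both higher and 8 opposed from E10.5 to adult, and 0 opposed from E10.5 to E13.5. A pseudocount of 0.1 widened the median gap between partners to 1.46, 1.61 and 1.63 at E10.5, E13.5 and adult, and gave 25 opposed pairs from E13.5 to adult and 2 both higher and 2 opposed from E10.5 to E13.5. The count of both higher from E10.5 to E13.5 was 0 when joined loci were left out, when coding sums were made equal, and without the histone pairs, a setting added after seeing the data.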
